A study of Mus musculus with 2 samples.

Results

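The genes described here are 10 regulators of alternative splicing that act in the heart after birth: Rbm20, Rbm24, Mbnl1, Mbnl2, Celf1, Celf2, Rbfox1, Rbfox2, Ptbp1 and Srsf1. They were chosen by symbol, and all 10 were found among the 55450 annotated genes compared in the series. RNA of whole heart tissue was sequenced from B6CASTF1/J females, hybrids between the strains C57BL/6J and CAST/EiJ, at 14 days of age. There is 1 group of 2 libraries, with no treatment, no mutant and no second age, so levels are described and no test between groups was possible. Each library was made from 300 ng of total RNA, depleted of ribosomal RNA and carrying ERCC spike-in RNAs. Both libraries carry the same donor entry in the labels. The description of replicate 1 speaks of 3 females and that of replicate 2 of a female, each with a number of its own, while a description shared by both speaks of 3 females, so how many animals stand behind each library is uncertain. The spread between the libraries, given as SD (n = 2 throughout), may therefore be partly technical.

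Splicing regulators bind short motifs in pre-mRNA and raise or lower the use of nearby exons, and in the heart after birth many sarcomere, ion channel and signalling genes switch exons under their control. RBM20 and RBM24 are muscle-enriched RNA-binding proteins, the MBNL proteins promote and the CELF proteins often oppose the adult splicing pattern, and the RBFOX proteins recognise UGCAUG. PTBP1 is a broad repressor of exons and SRSF1 is an SR protein that mostly promotes their inclusion. Several of these proteins also regulate exons in their own transcripts or in those of their relatives.

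The alternative exons shown here carry the isoform differences described further on, and are given from the annotated transcripts of GENCODE M21 on mm10, 5′ to 3′ on the strand of the gene. The first pair is the 54-base exon of Mbnl1 and of Mbnl2, which in these proteins holds part of a nuclear localisation signal. Capitals mark the 8 positions at which the pair differs, an identity of 85.2%.
Mbnl1, chr3:60614683-60614736 (+): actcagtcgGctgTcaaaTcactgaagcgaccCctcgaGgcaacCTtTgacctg
Mbnl2, chr14:120395712-120395765 (+): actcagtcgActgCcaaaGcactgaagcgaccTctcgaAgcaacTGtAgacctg

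The next pair is a 36-base exon further downstream in both genes, with 5 differences and an identity of 86.1%. Capitals mark TGCATG, the DNA spelling of the RBFOX motif, which was searched on the transcript strand. The motif was present in 6 of 474 internal coding exons of this length in the annotation, or 1.27%, and a match describes the letters only.
Mbnl1, chr3:60621423-60621458 (+): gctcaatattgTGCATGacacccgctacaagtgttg
Mbnl2, chr14:120403336-120403371 (+): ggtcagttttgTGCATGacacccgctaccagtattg

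The last 3 sequences are an exon found in the Rbm20 transcript annotated as a target of nonsense-mediated decay (NMD), the pathway that degrades RNAs with early stop codons, and 2 exons of Ptbp1. The 78-base exon of Ptbp1 codes for part of the linker between its RNA-binding domains. PTBP1 protein represses the 34-base exon, and skipping it shifts the reading frame. The exon of Rbm20, the 34-base exon of Ptbp1 and the 36-base exon of Mbnl2 were chosen after their values had been seen.
Rbm20, chr19:53852354-53852399 (+): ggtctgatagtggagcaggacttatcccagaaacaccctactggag
Ptbp1 78-base exon, chr10:79860117-79860194 (+): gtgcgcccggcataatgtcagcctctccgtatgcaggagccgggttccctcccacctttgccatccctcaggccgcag
Ptbp1 34-base exon, chr10:79862014-79862047 (+): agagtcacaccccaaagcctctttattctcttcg

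The libraries held 36404376 expected counts in replicate 1 and 34569708 in replicate 2, of which 36194377 and 34355702 lay in annotated genes. The limit that a count of 0 sets (3 counts) lay at 0.0829 and 0.0873 CPM, the count scaled to the total of annotated genes. Cardiomyocyte markers led in both, 10 of 10 at 1 TPM or more, with summed levels of 47112 and 49195 TPM in replicates 1 and 2 (TPM is a level per length, scaled to the same total in each library). Some other marker groups differed more between the libraries: 8 airway epithelium markers summed to 184 and 12.2 TPM, and 7 erythroid markers to 35952 and 27772 TPM. Macrophage markers summed to 116 and 89.1 TPM, and lymphocyte and thymus markers to 6.56 and 3.18 TPM, with 82 and 1 counts of Rag1 (named after its values had been seen). Scgb1a1, a defining airway marker, was at 97.6 and 5.96 TPM. Sftpc, counted in the airway list but a marker of alveolar cells, was at 0 and 0.850 TPM (0 and 16 counts). The others of that list were all higher in replicate 1. Of the skeletal muscle markers 3 of 10 were at 1 TPM or more, led by Ckm at 1651 and 1602 TPM. The defining skeletal muscle markers Acta1, Myh1 and Myh4 were lower in replicate 1, but the rest of the list went both ways. In TPM Ckm and Tnni2 (3.28 and 2.47) were higher in replicate 1, and Mylpf (0.45 and 1.33) was lower. The whole list summed to 1775 and 1735 TPM. Acta1 was at 119 and 127 TPM, Myh1 had 0 and 63.3 counts, and Myh4 had 0 and 18.3 counts. Sftpc, Myh1 and Myh4 were named after their values had been seen. The part of these cells in the levels of the splicing regulators was not tested. In whole tissue, fewer cells of a type and less RNA per cell cannot be told apart.

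All 10 regulators were well expressed. Their mean levels ran between 19.6 and 98.8 TPM in the first quantification, the tables whose column names are those of RSEM. The median was 51.4 TPM, against 9.81 TPM for the 11727 protein-coding genes at 1 TPM or more. Their summed level was 589 and 576 TPM in replicates 1 and 2, from 47537 and 45901 expected counts. The genes had a median of 12 annotated transcripts and a span of 156 kb, against 5 transcripts and 25.0 kb over those protein-coding genes.

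Among the muscle-enriched regulators, Rbm20 (chr19:53677306-53867080), which represses exons of titin and causes dilated cardiomyopathy in people when mutated, was at 94.0 and 101 TPM in replicates 1 and 2 (97.7 ± 5.20). Rbm24 (chr13:46418434-46431095), which promotes inclusion of muscle exons, was at 93.5 and 86.0 TPM (89.8 ± 5.28). The values of the pair lie close together: the log2 ratio of Rbm20 to Rbm24 was 0.01 in replicate 1 and 0.24 in replicate 2. Rbm38, the close relative of Rbm24, was at 82.7 and 71.2 TPM, a log2 ratio of Rbm24 to Rbm38 of 0.22 ± 0.07.

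Mbnl2 (chr14:120275669-120431697) had the highest mean of the 10, at 105 and 92.2 TPM in replicates 1 and 2 (98.8 ± 9.31). Mbnl1 (chr3:60472830-60629750), the main MBNL protein of muscle and the protein trapped by repeat RNA in myotonic dystrophy, was at 78.9 and 72.9 TPM (75.9 ± 4.24). Which of the pair is higher depended on the measure. The log2 ratio of Mbnl1 to Mbnl2 was -0.38 ± 0.06 in the first quantification and 0.30 ± 0.01 in the second (the tables with the column names of kallisto), and -0.03 ± 0.10 in expected counts with no correction for length. In the second quantification Mbnl1 had the highest mean of the 10, at 118 and 109 TPM. In replicate 2, however, Rbm20 was above it there, at 115 TPM. Mbnl3, the relative found mainly outside adult muscle, was at 0.990 and 0.880 TPM, with 103 and 83 counts, so Mbnl1 was 81.3-fold and Mbnl2 106-fold higher than it on average. The second quantification gave 79.9-fold and 64.7-fold.

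The CELF genes were lower. Celf1 (chr2:90940382-91019497), whose protein falls in mouse heart after birth, was at 36.5 and 37.5 TPM in replicates 1 and 2 (37.0 ± 0.750). Celf2 (chr2:6539694-7509563) was at 27.4 and 27.9 TPM (27.6 ± 0.346), and Celf1 exceeded it by 0.42 ± 0.01 on the log2 scale, or 1.34-fold. The libraries were close to each other for both genes. The relatives Celf3, Celf4, Celf5 and Celf6, known mainly from the nervous system, averaged 0.110, 0.245, 0.0800 and 0.0200 TPM. In replicates 1 and 2 Celf4 had 22 and 16 counts and Celf5 9 and 6. Celf3, with 2 and 2 counts, and Celf6, with 3 and 0, did not exceed the limit of 3 counts. Set against their functional counterparts, Mbnl1 was 2.05-fold and Mbnl2 2.66-fold above Celf1 on average, with log2 ratios of 1.04 ± 0.11 and 1.41 ± 0.17. The second quantification gave log2 ratios of 1.36 and 1.05, so both MBNL genes were above Celf1 in each library of both quantifications.

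Among the RBFOX genes Rbfox2 (chr15:77078990-77307004) was at 49.4 and 52.2 TPM in replicates 1 and 2 (50.8 ± 2.04). Rbfox1 (chr16:5885355-7411526), the muscle and neuronal relative whose gene spans 1526 kb, was the lowest of the 10 at 19.8 and 19.3 TPM (19.6 ± 0.339). Rbfox2 was 2.59-fold above Rbfox1, a log2 ratio of 1.37 ± 0.08, and 1.15 ± 0.11 in the second quantification. Rbfox3, the neuronal member, had 9 and 2 counts, and in replicate 2 lay under the limit that a count of 0 allows.

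Srsf1 (chr11:88047373-88053755), whose loss in mouse heart disturbs splicing of Camk2d, was at 49.5 and 54.7 TPM in replicates 1 and 2 (52.1 ± 3.73). Against Srsf2, another SR protein gene, the log2 ratio of Srsf1 was -0.13 ± 0.05, and -0.43 ± 0.05 in the second quantification. By counts with no correction for length it was 0.13 ± 0.03. Ptbp1 (chr10:79854427-79864771) was at 34.4 and 31.8 TPM (33.1 ± 1.87). Its relatives were lower in TPM: Ptbp3, known from blood cells, was at 19.5 and 18.6 TPM, and Ptbp2, the neuronal form, at 10.9 and 12.9 TPM. The log2 ratio of Ptbp1 to Ptbp2 was 1.48 ± 0.26, and 0.69 ± 0.06 in the second quantification. That of Ptbp1 to Ptbp3 was 0.80 ± 0.03 in TPM but -0.53 ± 0.06 in counts with no correction for length. The size of the lead over Ptbp2 thus depended on the quantification, and the direction against Ptbp3 on the correction for length. Rbfox1 lay below Ptbp1, with a log2 ratio of -0.76 ± 0.06, and of -0.30 ± 0.21 in the second quantification.

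**Figure D1:**
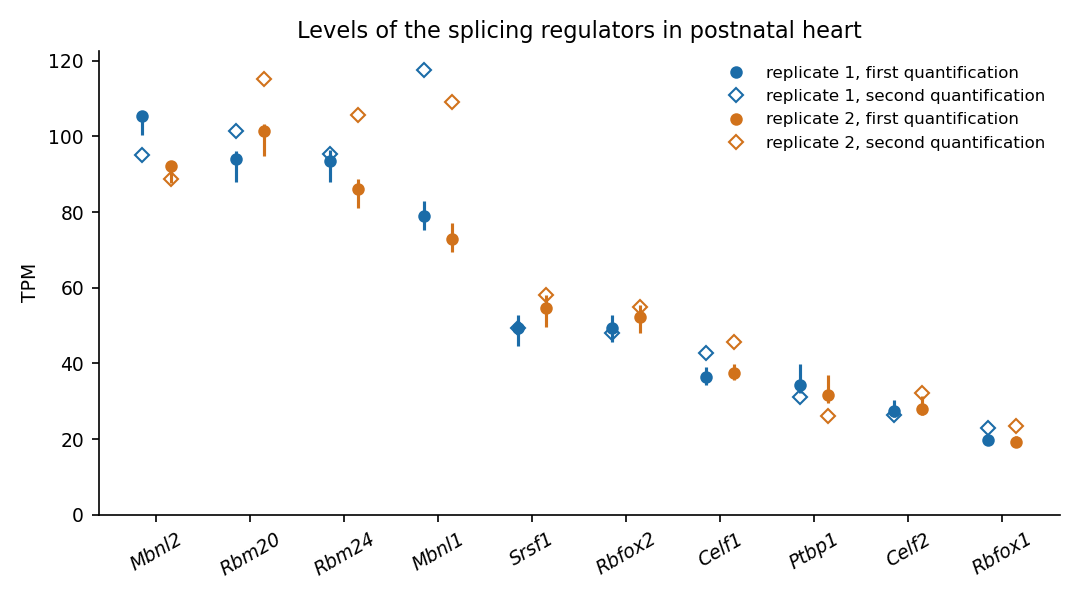
Level of each of the 10 regulators in TPM, in replicate 1 and replicate 2, with the deposited interval of each library as a bar, and the level in the second quantification. The deposited bars belong to the posterior mean TPM, so some points, such as those of Mbnl2, sit near the end of their bar. Mbnl2, Rbm20, Rbm24 and Mbnl1 lie at the top and Rbfox1 at the bottom.

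The order of the levels was Mbnl2, Rbm20, Rbm24, Mbnl1, Srsf1, Rbfox2, Celf1, Ptbp1, Celf2 and Rbfox1. Of the 45 pairs of members, 39 kept the same order in both libraries with deposited intervals that did not overlap in either. Neighbours were separate in that sense in 4 of 9 cases, namely Rbm24 above Mbnl1, Mbnl1 above Srsf1, Rbfox2 above Celf1, and Celf2 above Rbfox1. Mbnl2 and Rbm20, Rbm20 and Rbm24, Srsf1 and Rbfox2, Celf1 and Ptbp1, and Ptbp1 and Celf2 were not separate. In the second quantification 6 of the 45 pairs did not keep this order in both libraries. Rbm24 and Mbnl1 had the other order in both. Rbm20 and Mbnl1, and Ptbp1 and Celf2, had it in only 1 library. Against the protein-coding genes at 1 TPM or more, Mbnl2 stood at percentile 94.9, Rbm24 at 94.3 and Rbfox1 at 71.3.

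**Figure D2:**
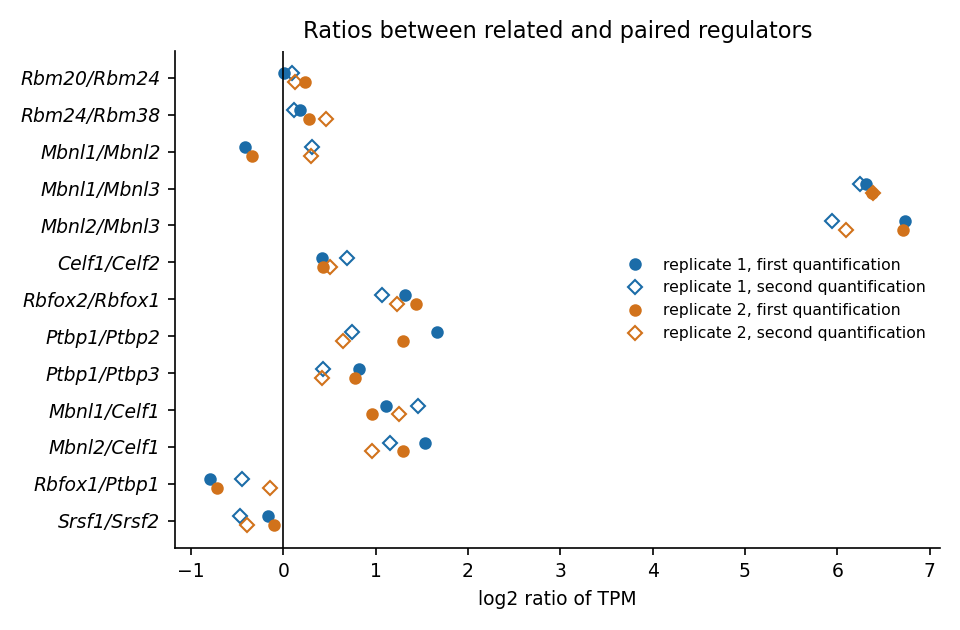
Log2 ratio of TPM within the pairs of related or functionally opposed genes, per library and quantification, with 0 meaning equal levels. Rbfox2 over Rbfox3 is not drawn, since Rbfox3 had 9 and 2 counts. Mbnl1 over Mbnl2 lies at -0.38 in the first quantification and at 0.30 in the second.

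The libraries gave nearly the same levels for these genes. The ratio of CPM in replicate 1 over replicate 2 ran between 0.898 for Srsf1 and 1.14 for Mbnl2, with a median of 0.979 against 0.968 over all 16379 genes whose expected counts averaged 10 or more. An exact Clopper-Pearson interval at 95% covers counting error only, and it excluded a ratio of 1 for 5 of the 10, against 31.0% of all genes tested and 51.5% of genes with mean counts of 1000 to 10000. Mbnl2 was higher in replicate 1 (1.14, interval 1.10 to 1.18), as it was in the second quantification (1.13), where 29.9% of all genes tested were called. Rbm20 (0.907, 0.881 to 0.933), Srsf1 (0.898, 0.852 to 0.945), Rbfox2 (0.920, 0.883 to 0.958) and Celf1 (0.923, 0.885 to 0.962) were lower in replicate 1. The shares of all genes called were 10.9% higher and 20.1% lower in replicate 1. Scaling by TMM factors, which moved the median ratio of all genes to 0.999, called 3 members higher (Mbnl2, Rbm24 and Mbnl1) and the same 4 lower, with 28.2% of all genes called. The direction of the first 5 was thus the same under both scalings. Of the genes called, 35.2% were higher in replicate 1 under the main scaling and 52.4% under TMM. When at least 2-fold in TPM + 1 was asked for, with a mean count of 50 or more and deposited intervals apart, 45 of 12871 genes (0.35%) differed, and none of the 10 members did.

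**Figure D3:**
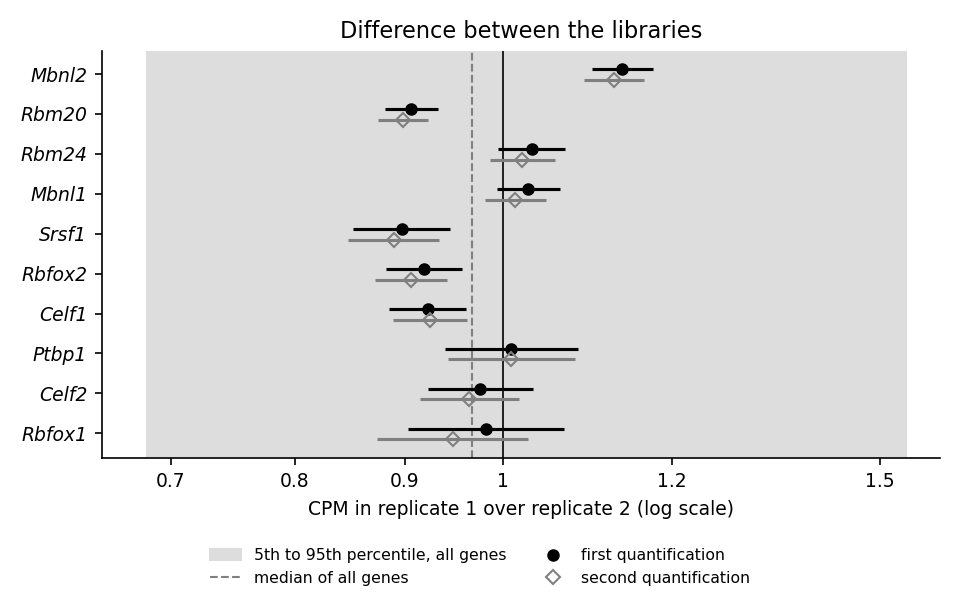
Ratio of CPM in replicate 1 over replicate 2 for each regulator on a log axis, with exact counting intervals at 95%, in both quantifications. The grey band runs between the 5th and the 95th percentile of all genes, 0.682 to 1.54, the dashed line is their median of 0.968, and all 10 regulators lie inside the band.

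Each gene also makes several transcripts, 131 annotated for the 10, of which 78 are annotated as protein-coding. Rbfox1 was almost wholly protein-coding, with 99.8% ± 0.255 of its TPM in such transcripts, and Celf1 had 90.8% ± 2.68. The lowest protein-coding shares were those of Mbnl2 (59.1% ± 1.61), Srsf1 (64.7% ± 1.36) and Rbm20 (65.3% ± 1.23). The second quantification gave 82.2% for Mbnl2, 71.7% for Srsf1 and 65.5% for Rbm20, so the value of Rbm20 was alike in both and that of Mbnl2 was not.

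Rbm20 had 3 annotated transcripts and a stable split between them. The full-length Rbm20-203, of 4892 bases and 14 exons, held 41.1% and 39.9% of the gene's TPM in replicates 1 and 2. The NMD transcript Rbm20-201, of 4663 bases, held 33.8% and 35.6%, and in the second quantification 33.8% and 35.1%. By expected counts, which follow length, it took 43.8% ± 1.37. Rbm20-201 has 7 exons, begins far inside the gene at position 53843210, holds the 46-base exon printed above, and ends 1700 bases beyond Rbm20-203. Of its bases, 1759 are not in Rbm20-203, so its share rests on the added exon and on the longer 3′ end together. Over all transcripts that span it, the 46-base exon was included in 45.1% and 47.1% of the TPM in replicates 1 and 2, and in 42.6% and 44.7% in the second quantification. The third transcript, Rbm20-202, is 465 bases long and held 24.8% ± 0.403 of the TPM but 2.51% ± 0.0506 of the expected counts.

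Annotated NMD transcripts were also present for Srsf1, Ptbp1 and Celf2. Those of Srsf1 held 10.1% and 7.91% of its TPM in replicates 1 and 2, and a mean of 5.60% ± 2.82 in the second quantification. Its 2 retained-intron transcripts held 26.2% and 26.5% in the first. SR protein genes are known to limit their own output through such RNAs. The NMD transcripts of Ptbp1 held 10.4% in replicate 1 and 2.95% in replicate 2, a difference that the second quantification did not show, with 9.89% and 8.30%. In Ptbp1 skipping of the 34-base exon gives the NMD form. Over transcripts of all types that include or skip it, the exon was included in 80.5% and 94.4% of the TPM in replicates 1 and 2. The second quantification gave 86.6% and 90.5%. The NMD transcript of Celf2 held 12.9% ± 0.212, and 3.59% ± 0.362 in the second quantification.

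Rbm24 had the plainest annotation. Its only protein-coding transcript, Rbm24-201, held 75.3% and 78.4% of the TPM in replicates 1 and 2 and 96.8% ± 0.439 of the expected counts, and the remainder lay in retained-intron and other noncoding transcripts. Retained-intron transcripts held 21.2% ± 0.332 of the TPM of Rbm24 but 2.90% ± 0.141 of its counts. That gap between measures recurs across the genes. Transcripts under 1000 bases held 40.4% of the TPM and 9.82% of the counts of Ptbp1, 19.6% and 4.02% for Mbnl1, 25.9% and 3.72% for Celf2, and 35.3% and 11.5% for Srsf1. TPM divides by length, so shares of short transcripts rest on few reads.

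**Figure D4:**
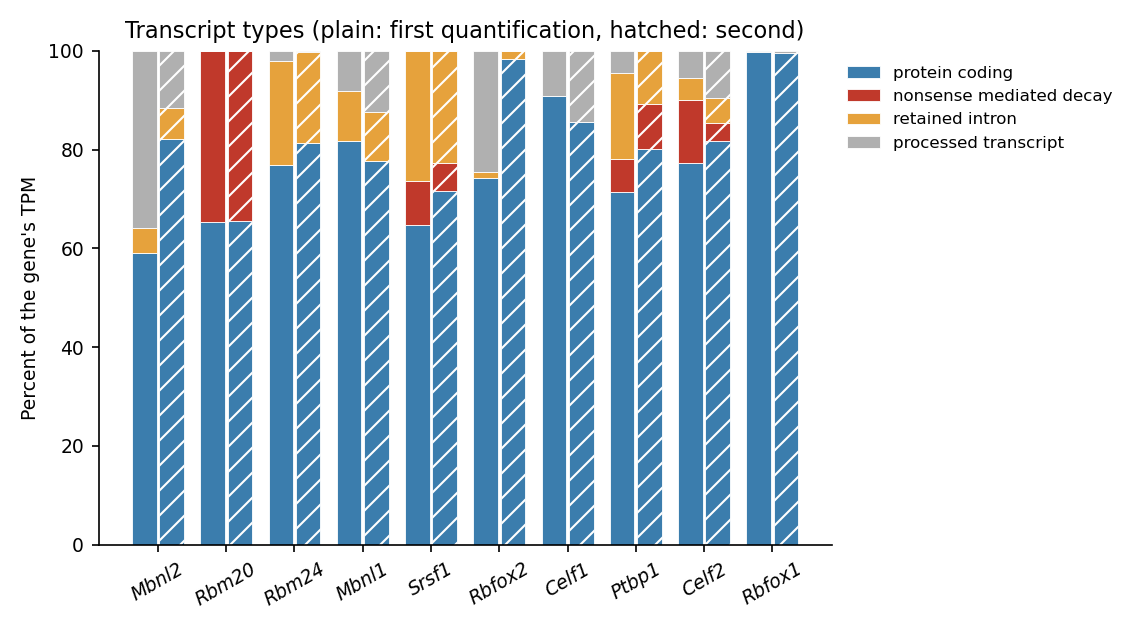
Percent of each regulator's TPM by annotated transcript type, as the mean of the libraries, in both quantifications. Rbfox1 is almost all protein-coding, at 99.8% in the first quantification, Rbm20 has 34.7% in an NMD transcript and Mbnl2 has 35.8% in processed transcripts.

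Both quantifications put the same transcript first in 5 of the 10 genes: Mbnl2, Rbm20, Rbm24, Srsf1 and Rbfox2. It was the same in both libraries for 7 in the first quantification and for 10 in the second. Only 3 genes had a transcript with at least 50% of the TPM in the first quantification, namely Mbnl2-204 at 56.8% ± 0.863, Rbm24-201 and Rbfox1-203 at 52.7% ± 2.12. For Rbfox1 the second quantification put Rbfox1-201 first, at 51.3% ± 0.688, against 44.9% ± 2.37 in the first. The pair differs at both ends: Rbfox1-201 begins at position 6349138 and Rbfox1-203 at 7069846, and Rbfox1-201 ends 1713 bases further on.

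In Celf1, Celf1-201 and Celf1-206 were level, at 28.5% ± 2.62 and 28.5% ± 2.93, and Celf1-206 led in the second quantification with 35.5% ± 1.68. In Ptbp1 the lead of Ptbp1-209, a transcript of 375 bases at 25.8% and 16.9% in replicates 1 and 2, was absent in the second quantification, where it was listed at 0 and Ptbp1-216 held 55.1% ± 7.38. Likewise Celf2-203, of 529 bases, held 23.7% ± 1.17 in the first and was listed at 0 in the second, and Rbfox2-205, of 417 bases, held 24.4% ± 2.88 and was listed at 0. Other short transcripts went the opposite way. Mbnl1-210, of 576 bases, held 3.51% and 3.26% in the first quantification and led Mbnl1 in the second at 24.8% ± 4.46, where transcripts under 1000 bases held 38.4% of the TPM of Mbnl1, against 19.6% in the first. Celf2-209, of 630 bases, was listed at 0 in the first and held 13.6% ± 9.21 in the second, and Celf1-209, of 489 bases, held 2.27% ± 1.37 in the first and 9.72% and 10.4% in replicates 1 and 2 in the second. The long forms Celf2-206 and Rbfox2-203 led in the second quantification, at 31.6% ± 0.377 and 41.8% ± 2.22.

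For Mbnl2 the quantifications disagreed on long transcripts as well. Mbnl2-201, of 4552 bases, held 0% and 1.43% of the TPM in replicates 1 and 2 in the first quantification, but 37.8% and 32.7% in the second. Mbnl2-205, a processed transcript of 2881 bases, held 36.3% and 34.7% in the first and 9.64% and 13.5% in the second. All bases of Mbnl2-205 lie within Mbnl2-201, and both end at the same position. Mbnl2-201 holds all of Mbnl2-204 and 2162 bases more, 2071 of them at the 3′ end. Within each quantification the libraries were close, so the difference lies between the quantifications and not between the libraries.

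Cassette exons are internal exons that some transcripts include and others skip. They were measured over protein-coding transcripts that include the exon or join its flanking splice sites directly, as the percent of their TPM that includes it. Transcripts that do neither were left out, so a value is not a share of all transcripts of the gene. The regulators had 21 such exons in 7 genes. Of these, 9 were between 10% and 90% in the first quantification, 12 in the second and 8 in both. The median SD between the libraries was 1.13 percentage points, while the median gap between the quantifications was 6.32 points, so the choice of quantification moved these values more than the choice of library.

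In Mbnl1 the 54-base exon with part of the nuclear localisation signal was included in 53.1% and 50.9% in replicates 1 and 2, and in 33.0% and 29.4% in the second quantification. The 36-base exon holding TGCATG was included in 58.8% and 58.7%, and in 69.5% and 68.7% in the second. A 95-base exon (chr3:60622146-60622240) was included in 81.6% and 83.3%, and in 82.8% and 82.2% in the second. Mbnl1 transcripts in these hearts thus came both with and without each of these exons. The order of the 54-base and 36-base exons was the same in both quantifications, while their values were not.

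In Mbnl2 the matching 54-base exon was included in 3.13% and 2.38% in replicates 1 and 2, but in 45.4% and 40.4% in the second quantification. It is present in Mbnl2-201, the transcript on which the quantifications disagree, so no level of inclusion can be given for it. The matching 36-base exon was included in 0% and 2.21%, and in 6.93% and 7.44% in the second. It was thus mostly skipped in Mbnl2 in both quantifications, while the exon of Mbnl1 with the same motif was mostly included.

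Rbfox2 had 3 named cassette exons. A 43-base exon (chr15:77091812-77091854) was included in 79.7% and 82.9% in replicates 1 and 2, and a 93-base exon (chr15:77105577-77105669) in 84.2% and 85.6%. The second quantification gave means of 76.0% and 75.9%. A 51-base exon (chr15:77231387-77231437) was included in 89.3% and 92.2%, and in 67.8% and 78.6% in the second. Against direct skipping, the values of all 3 exons were above 50% in each library of both quantifications. The 43-base exon was set against Rbfox2-201 and Rbfox2-202 only. Rbfox2-203 and Rbfox2-204 held a 40-base exon (chr15:77094451-77094490) instead and were left out. In the first quantification Rbfox2-203 alone was at 12.4 and 13.2 TPM, against 11.4 and 9.64 TPM for all transcripts counted. The value of the 43-base exon is thus not a share of all Rbfox2 transcripts.

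The 78-base exon of Ptbp1 was included in 52.6% and 42.8% in replicates 1 and 2, and in 79.9% and 78.9% in the second quantification. A 144-base exon of Celf2 (chr2:6549832-6549975) was included in 84.7% and 81.8%, and in 81.1% and 81.4% in the second. Its value was close to the same in both, unlike that of Ptbp1. In Celf1 a 152-base exon outside the coding sequence (chr2:90987665-90987816) was included in 47.3% and 41.1%, and in 39.5% and 33.0% in the second.

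**Figure D5:**
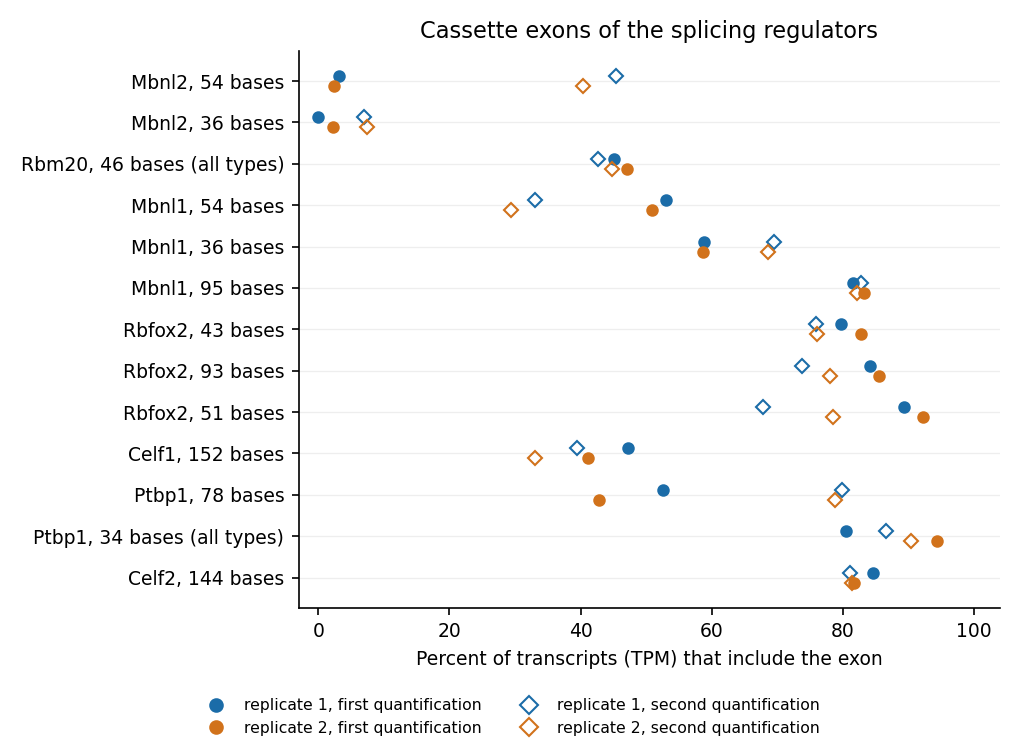
Percent of TPM that includes each cassette exon of the regulators, among protein-coding transcripts that include it or skip it directly, per library and quantification. Lines marked "all types" use such transcripts of every annotated type. The 54-base exon of Mbnl2 lies near 3% in the first quantification and above 40% in the second, and the 95-base exon of Mbnl1 lies between 81% and 84% in all 4 measurements.

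Genes described as targets of these regulators gave the same kind of picture. All 31 listed targets were at 1 TPM or more, with a median of 88.1 TPM, and 26 of them had a cassette exon between protein-coding transcripts. Those genes had 119 such exons, of which 62 were between 10% and 90% in the first quantification, 67 in the second and 54 in both. The exon nearest 50% in each gene is described in the following values, so these exons were selected for being mixed. They were not matched to the exons that the regulators are known to control. A gene described as a target therefore does not make its exon here a regulated one.

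Titin (Ttn), the spring protein of the sarcomere, is a gene with exons that RBM20 represses. It included a 138-base exon (chr2:76965777-76965914) in 43.1% and 42.9% in replicates 1 and 2, and in a mean of 36.3% in the second quantification. Whether RBM20 acts on this exon was not tested. Cacna1c, the L-type calcium channel, included an 84-base exon in 45.1% and 49.2%, with 45.6% in the second. Sorbs2, a scaffold of the Z-disc, included a 45-base exon in 50.8% and 49.5%, with 57.4% in the second. These exons were thus used in part of the transcripts in every measurement. Enah, an actin regulator, likewise included a 63-base exon in 41.0% and 43.8%, with 40.8% in the second.

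Other targets were nearer to skipping or inclusion. Mef2d, a muscle transcription factor, included a 21-base exon in 15.9% and 14.5%, with a mean of 13.9% in the second quantification. Insr, the insulin receptor and a classic MBNL and CELF target, included its 36-base exon in 20.3% and 16.7%, with 20.5% in the second. Ryr2, the calcium release channel, included a 21-base exon in 91.7% and 89.5%, with 96.3% in the second.

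For some targets the values were not stable. Tnnt2, cardiac troponin T, included a 9-base exon in 76.1% and 73.8% in replicates 1 and 2, but in a mean of 28.9% in the second quantification. In Pkm, whose mutually exclusive exons PTBP1 helps to choose, the exon measured was another, of 155 bases and outside the coding sequence. It was at 38.5% and 58.0%, and at 0% in the second. Mef2c, a cardiac transcription factor, had a 24-base exon at 56.7% and 40.9%, with 53.2% in the second. Of the 26 named exons, 9 differed by more than 10 percentage points between the quantifications and 4 had an SD above 5 points between the libraries.

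The wider set of splicing genes placed the members among other abundant regulators. All 21 hnRNP genes were at 1 TPM or more, with a median of 44.4 TPM, led by Hnrnpk at 229 and 239 TPM and Hnrnpa2b1 at 181 and 183 TPM in replicates 1 and 2. The hnRNP proteins coat pre-mRNA in most cell types. Of 12 other SR protein genes 11 were detected, with a median of 22.4 TPM, led by Srsf5 at 88.5 and 86.6 TPM. All 8 SR protein kinases were detected, with a median of 16.6 TPM, led by Clk1 at 39.8 and 27.6 TPM. Over all 21951 protein-coding genes 53.4% were at 1 TPM or more, with a median of 1.59 TPM.

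Among 30 other tissue-restricted regulators 22 were detected, with a median of 18.1 TPM. Qk, a regulator of muscle and glial splicing, exceeded every member at 179 and 194 TPM in replicates 1 and 2, and Rbpms, a regulator enriched in muscle, was at 107 and 96.3 TPM. The epithelial regulators Esrp1 and Esrp2 and the neuronal Elavl2, Elavl3 and Elavl4 each averaged under 1 TPM. The neuronal Nova2 and Srrm4 were detected, at 4.22 and 3.43 TPM and at 2.63 and 3.60 TPM in replicates 1 and 2. These 7 genes were named after their values had been seen. The members had a median of 51.4 TPM, against 0.245 TPM for their 9 paralogs, of which Rbm38, Ptbp3 and Ptbp2 were detected.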

How the data were processed

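RNA of 2 heart libraries of 1 group was analysed from deposited tables. The readme files name the mouse assembly mm10 and the annotation GENCODE M21, while the sources used here give no aligner, program or version. The first quantification, per the file headers, holds the expected count per gene and transcript, not normalized, the authors' TPM over all rows, spike-ins included, and for each transcript its percent of the TPM of the gene. Per the file headers, bounds of an interval for the posterior mean TPM stand beside it, used here as a score of precision within a library. The second quantification holds, per the file headers, estimated counts and TPM per transcript, which were summed per gene. The handling of CAST/EiJ alleles in the alignment was not stated in the sources read.

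Ratios between the libraries were computed from expected counts rounded to whole numbers, scaled to the totals of annotated genes, with exact Clopper-Pearson intervals at 95% that cover counting error only. TMM factors came from edgeR 4.0.16 and size factors from DESeq2 1.42.0, under R 4.3.3. All values are descriptions, since 1 group of 2 libraries allows no test. Exon shares were computed over transcripts of the annotation. An exon was counted where another protein-coding transcript joins its flanking splice sites directly. Only the transcripts that include the exon and those that make that join entered its share. The counting interval and the 2-fold rule were tested on simulated counts, and the finding of cassette exons on a made-up gene. Exon shares, transcript shares and ratios between genes were not tested in this way. The tools were matplotlib 3.10.9, scipy 1.17.1, numpy 2.4.6 and pandas 2.3.3 under Python 3.11.15.

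The members and lists were chosen with earlier results of these data known. Genes named are the members, all their paralogs, the 4 highest of each other list (only some are printed), transcripts with a share of at least 10% in either quantification, at most 3 exons per member nearest 50%, and 1 exon per target; names outside this rule are marked where they stand.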

Additional observations from a re-analysis of the deposited data

How the results depend on the processing

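The levels, ratios, shares and lists were recomputed under the alternatives. Over all results that answer a comparison, 94 values stayed alike and 9 moved; of single genes, pairs, transcripts and exons, 230 stayed alike, 97 moved, 4 ratios passed the counting interval and 3 reversed. The median level of the members was 119.6 TPM when TPM was recomputed over nuclear protein-coding genes. The number of genes at least 2-fold apart was 45, with 89 at a pseudocount of 0.1 and 213 at 1.5-fold. Airway markers at 1 TPM or more numbered 6, with 3 to 6 on leaving out a replicate. Without replicate 1 there were 3. Skeletal muscle markers numbered 3, with 5 in the second quantification, 6 at 0.5 TPM, and 3 to 5 on leaving out a replicate (5 without replicate 1). Lymphocyte markers numbered 1, with 3 at 0.5 TPM and 1 to 2 on leaving out a replicate (2 without replicate 2). The log2 ratio of Mbnl1 to Mbnl2 reversed to 0.30 in the second quantification, and by counts that of Ptbp1 to Ptbp3 reversed to -0.53 and that of Srsf1 to Srsf2 to 0.13; the first cause was not tested, and the others follow from leaving out the correction for length. No paired analysis was possible because there is 1 group.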
